A study of Mus musculus with 47 samples.

Results

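Acetylcholine synthesis, transport, breakdown and muscarinic reception were followed through 9 genes in the striatum of mice that carried the Q140 allele, targeted copies of Ccdc82, or both. The 9 genes were taken by name from the 48795 gene rows of the count table: Chat, Slc5a7, Slc18a3 and Ache for the transmitter, and Chrm1 to Chrm5 for its G protein-coupled receptors. The choice went by gene name and not by measured values, but it was made with earlier results of these data known. All 9 had enough reads to be tested.

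Q140 is a knock-in allele of Htt, the mouse huntingtin gene, with an expanded CAG repeat, and serves as a model of Huntington's disease. Ccdc82 encodes a coiled-coil domain protein. The 6 groups were Q140 (8 mice), WT (8), Q140 Ccdc82+/- (8), Ccdc82+/- (8), Q140 Ccdc82-/- (7) and Ccdc82-/- (8). The Q140 mice were labelled heterozygous for the knock-in. All mice were on a C57BL background and 6 months old, 23 were female and 24 male, and each library, taken here as 1 mouse, came from total RNA of the corpus striatum. How the Ccdc82 allele was made is not given in the sources used here.

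Acetylcholine in the striatum comes mainly from large, sparse interneurons that fire tonically. Chat makes acetylcholine from choline and acetyl-CoA, Slc18a3 loads it into vesicles, Ache, acetylcholinesterase, splits it in the synaptic cleft, and Slc5a7 carries the freed choline back into the terminal. Chrm1, Chrm3 and Chrm5 encode receptors that couple to Gq and phospholipase C, whereas Chrm2 and Chrm4 encode receptors that couple to Gi/o and lower cyclic AMP. Medium spiny neurons, the output cells that make up most of the striatum, carry the M1 receptor encoded by Chrm1, and those of the direct pathway, which express the dopamine receptor gene Drd1, are known for the M4 receptor encoded by Chrm4.

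Library totals ran from 41.3 to 61.7 M counted reads, with a median of 47.7 M, and no pair of libraries was identical. Levels are given as CPM, the reads of a gene scaled to library size, with library sizes adjusted by edgeR's TMM factors. Ccdc82 averaged 4.56 and 4.57 CPM in the Q140 Ccdc82-/- and Ccdc82-/- groups, 8.61 and 8.42 CPM in the Q140 Ccdc82+/- and Ccdc82+/- groups, and 11.6 and 12.01 CPM in the Q140 and WT groups, and the levels followed the labelled copy number. Of 3 habenular markers, Pou4f1 was at 0 in 6 libraries and at most 0.22 CPM elsewhere, Gpr151 had 0.336 to 1.1 CPM and Nwd2 had 3.48 to 8.71 CPM. Of 4 thalamic or pallidal markers, Slc17a6 had at most 0.531 CPM, and Tcf7l2 had 2.58 to 4.95, Ntng1 8.33 to 15.2 and Rora 56.2 to 77.4 CPM. Ntng1 rose with Q140 by 0.28 on the intact and 0.36 on the homozygous Ccdc82 background, Nwd2 fell by 0.30 on the heterozygous one (edgeR, adjusted p 0.0037, 0.00039 and 0.0201), and the part of these tissues in the results was not tested. 1 library, Ccdc82-/- male 1, stood apart in its summed choroid plexus markers. Scaled to the library total alone, without TMM factors, the sum was 328 CPM, 10.4 times the median. The results were also computed without this library.

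The genes lie on 7 autosomes (GRCm38, Ensembl identifiers in the deposited table). Chat spans chr14:32408203-32465989 on the minus strand. Slc18a3 has a single exon at chr14:32462438-32464850, inside the Chat gene on the same strand, and shares 0 exon bases with it. Slc5a7 lies at chr17:54273590-54299034 on the minus strand and Ache at chr5:137287519-137294466 on the plus strand, where 98 of its 4623 exon bases overlap the opposite-strand transcript Gm42456. Chrm1 and Chrm2 share 329 and 142 exon bases with transcripts on the other strand, and the libraries kept strand. Among the receptor genes, Chrm1 lies at chr19:8663789-8683587, Chrm2 at chr6:36388084-36528414, Chrm3 at chr13:9875486-10360847, Chrm4 at chr2:91927249-91928688 and Chrm5 at chr2:112479171-112480769. The annotated models of Chrm4 (1440 bases) and Chrm5 (1599 bases) are single exons without annotated untranslated regions, and the deposited per-length values used these same lengths.

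RefSeq places the start of Chrm4 upstream of that single exon. The 250 bases before it (chr2:91921939-91922188, plus strand, GRCm38.p6) are printed because Chrm4 was the gene of the 9 with the largest change, beside the 250 bases before Slc5a7 (chr17:54299035-54299284, minus strand), whose change was small. Neither window overlaps an annotated gene. Capitals mark matches, on either strand, to the letters TATAAA, TGACGTCA and GGGCGG.
Chrm4: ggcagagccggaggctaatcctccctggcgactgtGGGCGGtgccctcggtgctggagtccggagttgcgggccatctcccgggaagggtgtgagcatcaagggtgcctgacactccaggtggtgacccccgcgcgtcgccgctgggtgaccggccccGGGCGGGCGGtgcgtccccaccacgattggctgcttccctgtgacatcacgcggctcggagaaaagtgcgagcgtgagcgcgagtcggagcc
Slc5a7: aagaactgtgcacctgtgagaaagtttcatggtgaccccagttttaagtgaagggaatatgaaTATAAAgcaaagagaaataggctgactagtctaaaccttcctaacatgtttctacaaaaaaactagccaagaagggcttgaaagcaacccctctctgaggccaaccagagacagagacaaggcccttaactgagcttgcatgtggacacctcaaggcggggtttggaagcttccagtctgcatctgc
The Chrm4 window was 70.0% G and C and held GGGCGG, which 32.7% of all 32851 RefSeq windows of this length hold, with overlapping matches. The Slc5a7 window was 45.6% G and C and held TATAAA, found in 12.4% of windows. TGACGTCA, present in 1.55% of windows, was in neither. These matches describe the letters only. RefSeq windows were found for 8 of the 9 genes, all but Chrm1.

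By the gene lengths of the deposited values, Chrm4 was the most abundant of the 9 genes in every group. In the deposited FPKM (fragment counts divided by gene length and library total), Chrm4 averaged 44.7 ± 3.79 in Q140 mice and 62.9 ± 4.31 in WT mice (SD, n = 8 each). Chrm1 followed with 31.6 ± 0.655 FPKM in Q140 mice and 34.9 ± 1.94 FPKM in WT mice, and Ache with 22.5 ± 0.516 FPKM in Q140 mice and 19.7 ± 1.02 FPKM in WT mice. The order then ran Chat, Slc5a7, Slc18a3, Chrm3, Chrm2 and Chrm5, with mean FPKM of 12.3, 11.3, 5.33, 2.55, 1.80 and 0.338 in Q140 mice, against 12.4, 11.4, 5.21, 2.50, 1.79 and 0.358 in WT mice. All 6 groups had this order. The places of Chat and Chrm3 depend on the gene length used: the deposited values imply 2810 bases for Chat and 4507 for Chrm3, where the annotation read here has 4703 and 6253 exon bases, and the longer lengths would lower both genes. The order of Chat and Slc5a7, and of Chrm3 and Chrm2, is therefore uncertain. The place of Chrm4 above Chrm1, and their shares below, rest on lengths of 1440 bases for Chrm4 and 6487 for Chrm1. In CPM, without division by length, Chrm1 averaged 231.4 and Chrm4 92.5 in WT mice, and 201.5 and 63.2 in Q140 mice. Neighbours in this order had separate ranges within each group, except that Chat overlapped Slc5a7 in all 6 groups and Chrm3 overlapped Chrm2 in the WT and Ccdc82+/- groups. Of the summed FPKM of the 5 receptors, Chrm4 made up 55.1% ± 1.7 in Q140 mice and 61.3% ± 1.77 in WT mice, and Chrm1 made up 39.1% ± 1.6 in Q140 mice and 34.1% ± 1.61 in WT mice. The genes of the Gq-coupled receptors M3 and M5 and of the Gi/o-coupled M2 receptor each held at most 3.15% in any group.

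The first question was which of the 9 genes differed with the Q140 allele, asked separately on intact, heterozygous and homozygous Ccdc82 backgrounds. These 3 comparisons share no library. The receptor genes Chrm4 and Chrm1 fell on every background, Ache rose on every background, and Chat fell on the heterozygous and homozygous backgrounds (edgeR quasi-likelihood test, Benjamini-Hochberg adjusted p under 0.05). That made 3 of 9 genes in Q140 against WT, where 34.7% of the 19193 genes tested passed, 4 of 9 in Q140 Ccdc82+/- against Ccdc82+/-, where 35.0% passed, and 4 of 9 in Q140 Ccdc82-/- against Ccdc82-/-, where 33.2% passed. These shares of 9 lie near the share among all genes. On the TMM-scaled CPM, the group ranges of Chrm4 and Chrm1 did not overlap on any background, and those of the other 7 genes did. On the deposited FPKM, Chrm4 stayed apart on each background, Chrm1 overlapped on each, and Ache was apart on the intact background, with 21.4 to 23.1 FPKM in Q140 mice against 18.3 to 21.0 FPKM in WT mice. On the CPM scale, complete separation downwards was seen for 5.07%, 5.76% and 5.36% of all genes tested on the intact, heterozygous and homozygous backgrounds. The share of all genes that lay apart on FPKM was not computed. On that scale the median gene was 0.05 higher in Q140 than in WT mice, so the separation of Ache there has no such share beside it.

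**Figure D1:**
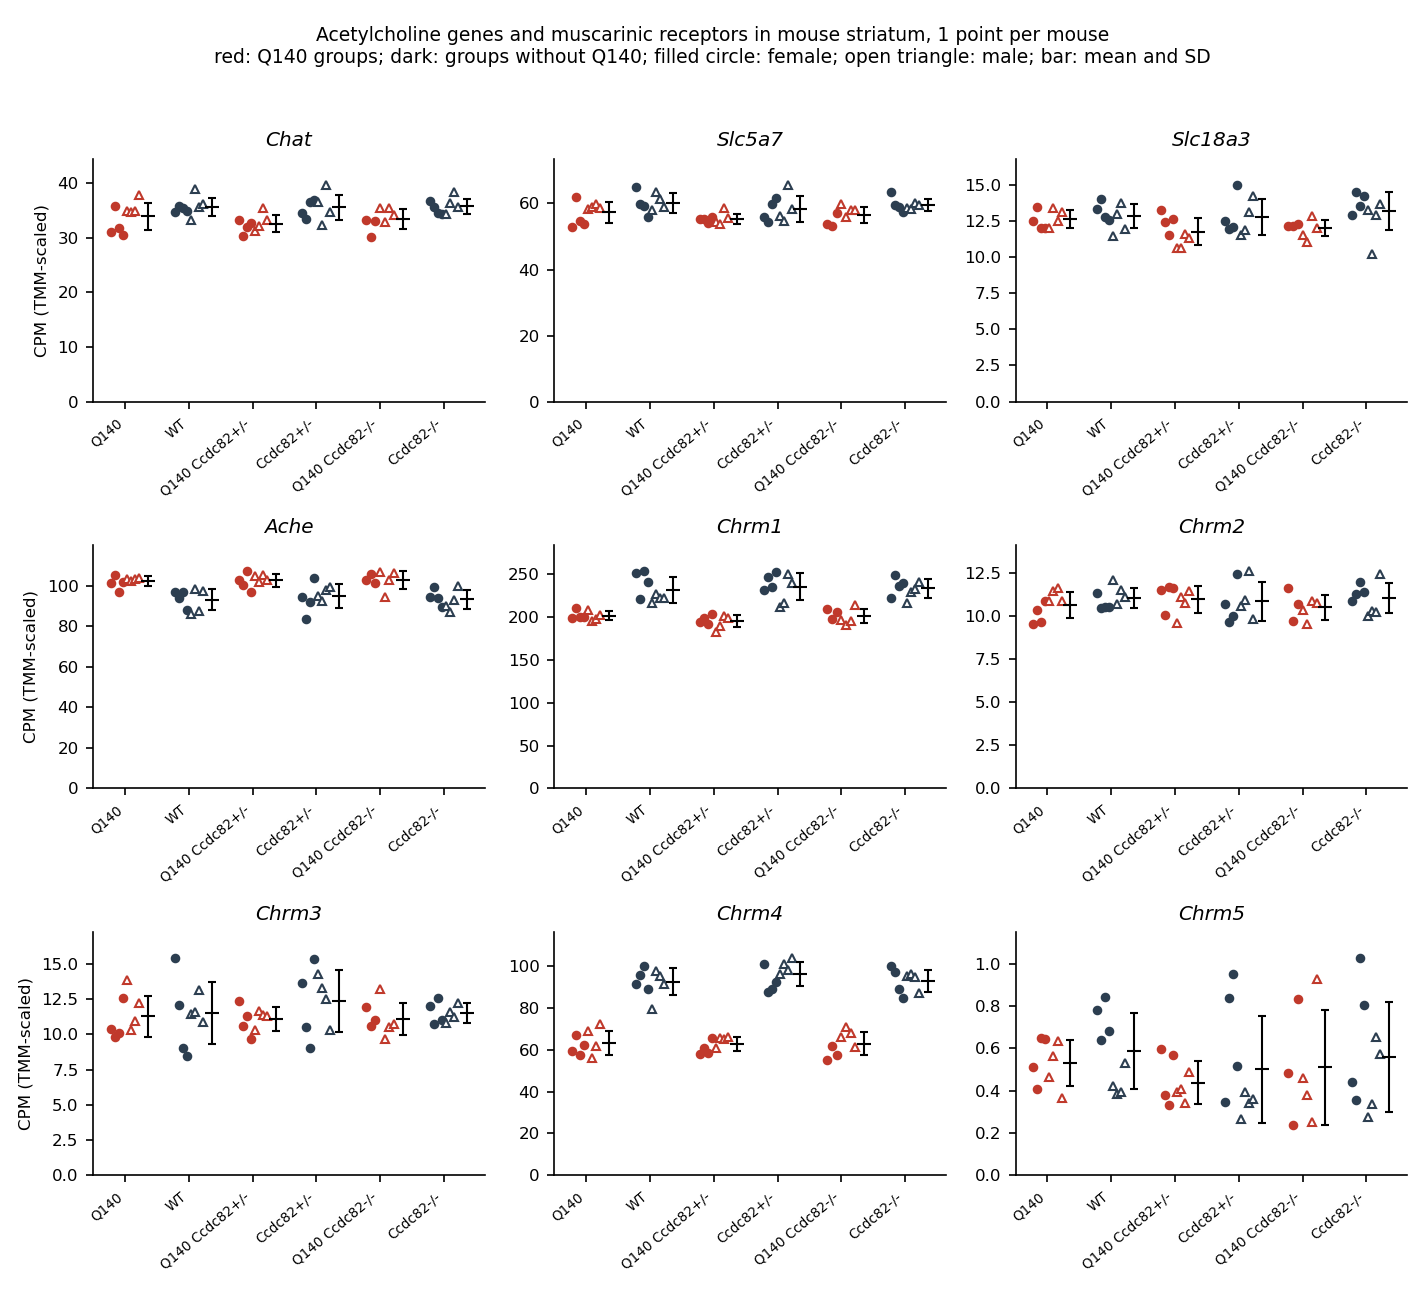
CPM of each gene in every mouse (y axis from 0, TMM-scaled CPM), with each Q140 group to the left of the group without Q140 on the same Ccdc82 background; bars give mean and SD. Chrm4 in Q140 mice reached at most 72.1 CPM, below the lowest WT mouse at 79.3 CPM, while the ranges of Chat, Slc5a7, Slc18a3, Chrm2, Chrm3 and Chrm5 overlapped on each background.

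Chrm4 showed the largest change of the 9 genes. Its level had a lowest, median and highest value of 56.2, 62.1 and 72.1 CPM in Q140 mice, against 79.3, 93.3 and 99.9 CPM in WT mice. It was 58.0, 63.2 and 66.2 CPM in Q140 Ccdc82+/- mice, against 87.7, 97.0 and 103.7 CPM in Ccdc82+/- mice. It was 54.9, 61.8 and 70.7 CPM in Q140 Ccdc82-/- mice, against 84.9, 95.1 and 99.8 CPM in Ccdc82-/- mice. Every Q140 library lay below every library without Q140 on its own background, and the Q140 means stood at 68.3%, 65.1% and 67.6% of those without Q140. The log2 fold change was -0.55 ± 0.05 on the intact background (SE, adjusted p 3.73e-13, edgeR), -0.62 ± 0.05 on the heterozygous background (adjusted p 7.59e-15) and -0.57 ± 0.05 on the homozygous background (adjusted p 4.48e-13). Ordered from the most lowered of 19193 genes, Chrm4 held places 674, 417 and 515. In bulk tissue, fewer cells of a type and less RNA per cell cannot be told apart.

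Markers of medium spiny neurons moved with this result. All 5 genes of a list shared by both output pathways fell, and their summed level was 5820 to 7200 CPM in Q140 mice against 9360 to 10600 CPM in WT mice. All 4 indirect pathway markers fell as well, with sums of 1170 to 1490 CPM in Q140 mice against 2320 to 2650 CPM in WT mice. Of the 4 direct pathway markers, Drd1 fell by 0.57 on the log2 scale, Tac1 and Eya1 rose, and Pdyn did not pass the test, with sums of 556 to 624 CPM in Q140 mice against 683 to 729 CPM in WT mice. The part of these cells in the change of Chrm4 and Chrm1 was not tested.

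Chrm4 kept its proportion to Drd1, the dopamine receptor gene of the same direct pathway cells. The log2 ratio of Chrm4 to Drd1 reads in each library averaged -2.05 ± 0.05 in Q140 mice and -2.08 ± 0.09 in WT mice (SD, n = 8 each). The ratio differed by 0.02 on the intact background (95% interval -0.05 to 0.10), by -0.01 on the heterozygous background (-0.09 to 0.08) and by 0.02 on the homozygous background (-0.07 to 0.12), with adjusted p of 0.689, 0.905 and 0.689 in exact two-sided permutation tests adjusted over 18 ratio comparisons. Differences of these sizes were smaller than the spread between mice, and the intervals bound them to at most 0.12 in either direction. A fall of this size was not particular to Drd1. In an edgeR contrast over the 3 backgrounds, added after the separate results were seen, Chrm4 changed by -0.58 and Drd1 by -0.59. Drd2, of the indirect pathway, also changed by -0.59, whereas Tac1 and Eya1 of the direct pathway list changed by 0.17 and 0.37. Ratios of Chrm4 to Drd2, Tac1 or Eya1 were not tested.

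Chrm1, whose M1 receptor both classes of output neuron carry, changed by a smaller amount. It had 195.5, 199.7 and 210.8 CPM as lowest, median and highest in Q140 mice, against 215.7, 224.3 and 253.0 CPM in WT mice. On the heterozygous background it had 182.5, 195.9 and 203.8 CPM in Q140 Ccdc82+/- mice, against 211.0, 237.7 and 252.0 CPM in Ccdc82+/- mice. On the homozygous background it had 190.5, 197.0 and 213.6 CPM in Q140 Ccdc82-/- mice, against 216.2, 234.7 and 249.3 CPM in Ccdc82-/- mice. The CPM ranges stayed apart on each background, though on the homozygous one the gap was only between 213.6 and 216.2 CPM. This separation depended on the scaling: on the deposited FPKM, Chrm1 had 31.0 to 32.9 in Q140 mice against 32.6 to 37.8 in WT mice, 29.3 to 32.2 in Q140 Ccdc82+/- mice against 31.7 to 37.3 in Ccdc82+/- mice, and 30.5 to 33.5 in Q140 Ccdc82-/- mice against 33.0 to 37.8 in Ccdc82-/- mice. The log2 fold change was -0.20 ± 0.03 (adjusted p 1.42e-06), -0.27 ± 0.03 (8.02e-10) and -0.21 ± 0.03 (1.04e-06) on the intact, heterozygous and homozygous backgrounds (edgeR).

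Within single libraries the balance between the receptor genes shifted. The log2 ratio of Chrm4 to Chrm1 averaged -1.68 ± 0.10 in Q140 mice and -1.32 ± 0.11 in WT mice (SD, n = 8 each). It was lower by 0.35 on all 3 backgrounds, with 95% intervals of -0.46 to -0.24, -0.47 to -0.22 and -0.52 to -0.18 (exact permutation tests, adjusted p 0.00028, 0.00028 and 0.0014). All 23 Q140 libraries lay below the mean of their group without Q140. Chrm1 rose relative to both dopamine receptor genes: against Drd1 by 0.38, 0.34 and 0.38, and against Drd2, the indirect pathway receptor gene, by 0.35, 0.34 and 0.38, each with adjusted p 0.00028 in exact permutation tests. The smallest unadjusted p these tests can give is 0.000155.

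**Figure D2:**
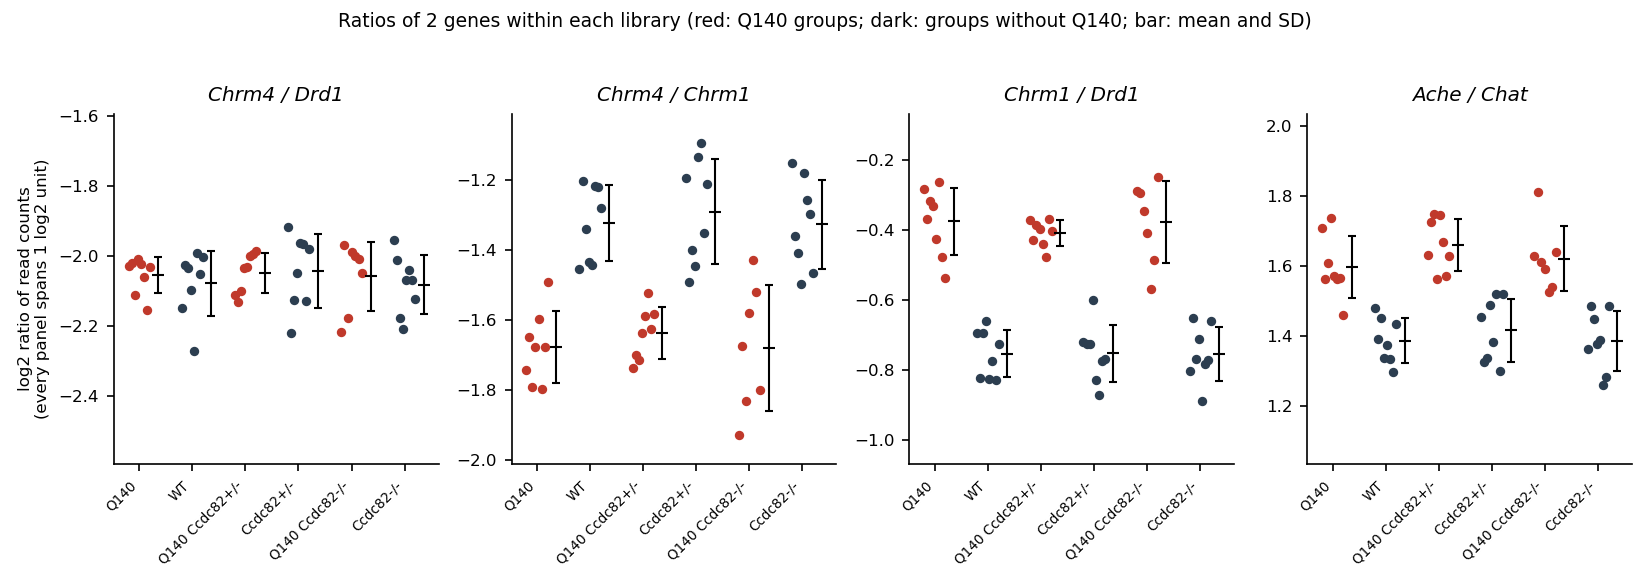
log2 ratio of the read counts of 2 genes in each library (y axis, every panel spanning 1 log2 unit), with each Q140 group left of its group without Q140; bars give mean and SD. The Chrm4 to Drd1 ratio overlaps between groups throughout, whereas Chrm4 to Chrm1 lies lower and Ache to Chat higher in the Q140 groups.

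The remaining receptor genes gave no call. Chrm2, which encodes the Gi/o-coupled M2 receptor, had 9.54 to 11.6 CPM in Q140 mice against 10.5 to 12.1 CPM in WT mice, and its log2 fold changes were -0.05 ± 0.05, 0.02 ± 0.05 and -0.08 ± 0.06 on the 3 backgrounds. Chrm3, encoding the Gq-coupled M3 receptor, had 9.78 to 13.9 CPM in Q140 mice against 8.48 to 15.4 CPM in WT mice, with changes of -0.03 ± 0.09, -0.16 ± 0.09 and -0.06 ± 0.10. The edgeR adjusted p of these genes ran from 0.195 to 0.845. On the deposited FPKM scale the values of Chrm2 moved to 0.00, 0.09 and -0.01, and those of Chrm3 to 0.04, -0.07 and 0.00, so their signs depend on the scaling. Chrm5, encoding the M5 receptor, was near the limit of detection with 12 to 48 reads per library. Its 95% intervals reached from -0.67 to 0.44 over the 3 backgrounds, so none of them alone excluded a fall about as large as that of Chrm4. Averaged over the 3 backgrounds, in a contrast added after the separate results were seen, Chrm5 changed by -0.12. The 95% interval of that average, -0.41 to 0.17, did not reach the -0.58 of Chrm4.

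Of the presynaptic genes, Chat fell on the heterozygous and homozygous backgrounds, and Slc5a7 and Slc18a3 passed on none. Chat had 30.5, 34.7 and 37.7 CPM as lowest, median and highest in Q140 mice, against 33.3, 35.6 and 38.9 CPM in WT mice. It had 30.4, 32.4 and 35.5 CPM in Q140 Ccdc82+/- mice, against 32.3, 35.5 and 39.7 CPM in Ccdc82+/- mice. It had 30.2, 33.3 and 35.4 CPM in Q140 Ccdc82-/- mice, against 34.3, 35.6 and 38.3 CPM in Ccdc82-/- mice. The ranges overlapped on each background. The log2 fold change was -0.07 ± 0.04 (adjusted p 0.123), -0.13 ± 0.04 (0.00453) and -0.10 ± 0.04 (0.0384) on the intact, heterozygous and homozygous backgrounds (edgeR), and only the last pair passed.

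Slc5a7, the choline transporter gene, had 53.0 to 61.8 CPM in Q140 mice against 55.8 to 65.0 CPM in WT mice, 53.9 to 58.7 CPM in Q140 Ccdc82+/- mice against 54.4 to 65.7 CPM in Ccdc82+/- mice, and 53.3 to 59.9 CPM in Q140 Ccdc82-/- mice against 57.4 to 63.4 CPM in Ccdc82-/- mice. Its change was -0.07 ± 0.03 on each background and passed on none (adjusted p 0.0955, 0.0774 and 0.098, edgeR). Slc18a3, the vesicular transporter gene, had 11.99 to 13.4 CPM in Q140 mice against 11.5 to 14.0 CPM in WT mice, 10.6 to 13.2 CPM in Q140 Ccdc82+/- mice against 11.5 to 15.0 CPM in Ccdc82+/- mice, and 11.1 to 12.8 CPM in Q140 Ccdc82-/- mice against 10.2 to 14.5 CPM in Ccdc82-/- mice. Its changes of -0.02 ± 0.05, -0.12 ± 0.05 and -0.13 ± 0.05 did not pass either (adjusted p 0.783, 0.0633 and 0.0684). Groups overlapped for both genes on each background.

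Averaged over the 3 backgrounds in a contrast added after the separate results were seen, 6 of the 9 genes passed, where 54.3% of all genes did: Chat at -0.10 ± 0.02, Slc5a7 at -0.07 ± 0.02, Slc18a3 at -0.09 ± 0.03, Chrm1 at -0.23 ± 0.02 and Chrm4 at -0.58 ± 0.03 fell, and Ache rose by 0.13 ± 0.02. On the deposited FPKM, where the median gene lay 0.06 higher in Q140 mice, the averages of the 3 presynaptic genes were -0.04 for Chat, -0.01 for Slc5a7 and -0.02 for Slc18a3, and none passed (limma on log2 FPKM, adjusted p 0.132, 0.744 and 0.501). Slc18a3 on the intact background changed sign there, to 0.03. Adding the plate column of the library as a factor also ended both Chat calls (edgeR, adjusted p 0.0598 and 0.264). The groups were spread unevenly over the plate columns. Column 6 held 3 Ccdc82+/- and 0 Q140 Ccdc82+/- libraries, and column 5 held 1 Ccdc82-/- and 4 Q140 Ccdc82-/- libraries. Column 4 held 4 WT and 0 Q140 libraries.

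Of the other genes of cholinergic interneuron identity, Isl1 rose. Lhx8, Gbx2 and Slc17a8, which encodes a vesicular glutamate transporter, gave no call on any background. Lhx8, a transcription factor gene of these interneurons, had 7.11 to 10.3 CPM in Q140 mice against 7.77 to 10.1 CPM in WT mice. Isl1, another transcription factor gene, rose to 22.4 to 25.5 CPM in Q140 mice, against 16.9 to 20.3 CPM in WT mice, by 0.37, 0.31 and 0.41 on the 3 backgrounds. Isl1 is also expressed in developing direct pathway neurons, and the cells that carry it here were not told apart. Ngfr is a marker of basal forebrain cholinergic neurons, which lie next to the striatum. It had 1.19 to 3.42 CPM in Q140 mice against 2.44 to 4.75 CPM in WT mice (edgeR, adjusted p 0.0505). It gave no call on any background, but fell by 0.29 in the contrast over the 3 backgrounds (edgeR, adjusted p 0.0373). The part of Ngfr-expressing cells in the values of Chat was not tested.

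Ache, whose enzyme ends the transmitter signal, was the gene of the 9 that rose. It had 97.1, 102.7 and 105.5 CPM as lowest, median and highest in Q140 mice, against 86.2, 95.4 and 98.3 CPM in WT mice. On the heterozygous background it had 96.8, 102.7 and 107.0 CPM in Q140 Ccdc82+/- mice, against 83.7, 94.7 and 103.6 CPM in Ccdc82+/- mice. On the homozygous background it had 94.4, 102.8 and 106.6 CPM in Q140 Ccdc82-/- mice, against 87.0, 93.6 and 99.8 CPM in Ccdc82-/- mice. All 23 Q140 libraries lay above the median of their group without Q140, although the ranges overlapped. The change was 0.13 ± 0.03 (adjusted p 0.000915), 0.12 ± 0.03 (0.004) and 0.14 ± 0.03 (0.000982) on the intact, heterozygous and homozygous backgrounds (edgeR). In females alone the values were 0.11, 0.12 and 0.13, with adjusted p of 0.119, 0.101 and 0.0966.

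Relative to Chat in the same library, Ache was higher in the Q140 groups. The log2 ratio of Ache to Chat averaged 1.60 ± 0.09 in Q140 mice and 1.39 ± 0.06 in WT mice, and the differences on the 3 backgrounds were 0.21, 0.24 and 0.23 (exact permutation tests, adjusted p 0.000509, 0.00028 and 0.00028). Slc5a7 relative to Chat differed by 0.00, 0.05 and 0.02, of which only the heterozygous background passed (exact permutation test, adjusted p 0.0183). Prima1, which encodes the membrane anchor of acetylcholinesterase, moved against Ache: it had 17.6 to 23.8 CPM in Q140 mice and 27.9 to 39.6 CPM in WT mice and fell by 0.71, 0.66 and 0.64 on the 3 backgrounds. Bche, butyrylcholinesterase, and Colq, the collagen tail gene, gave no call.

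**Figure D3:**
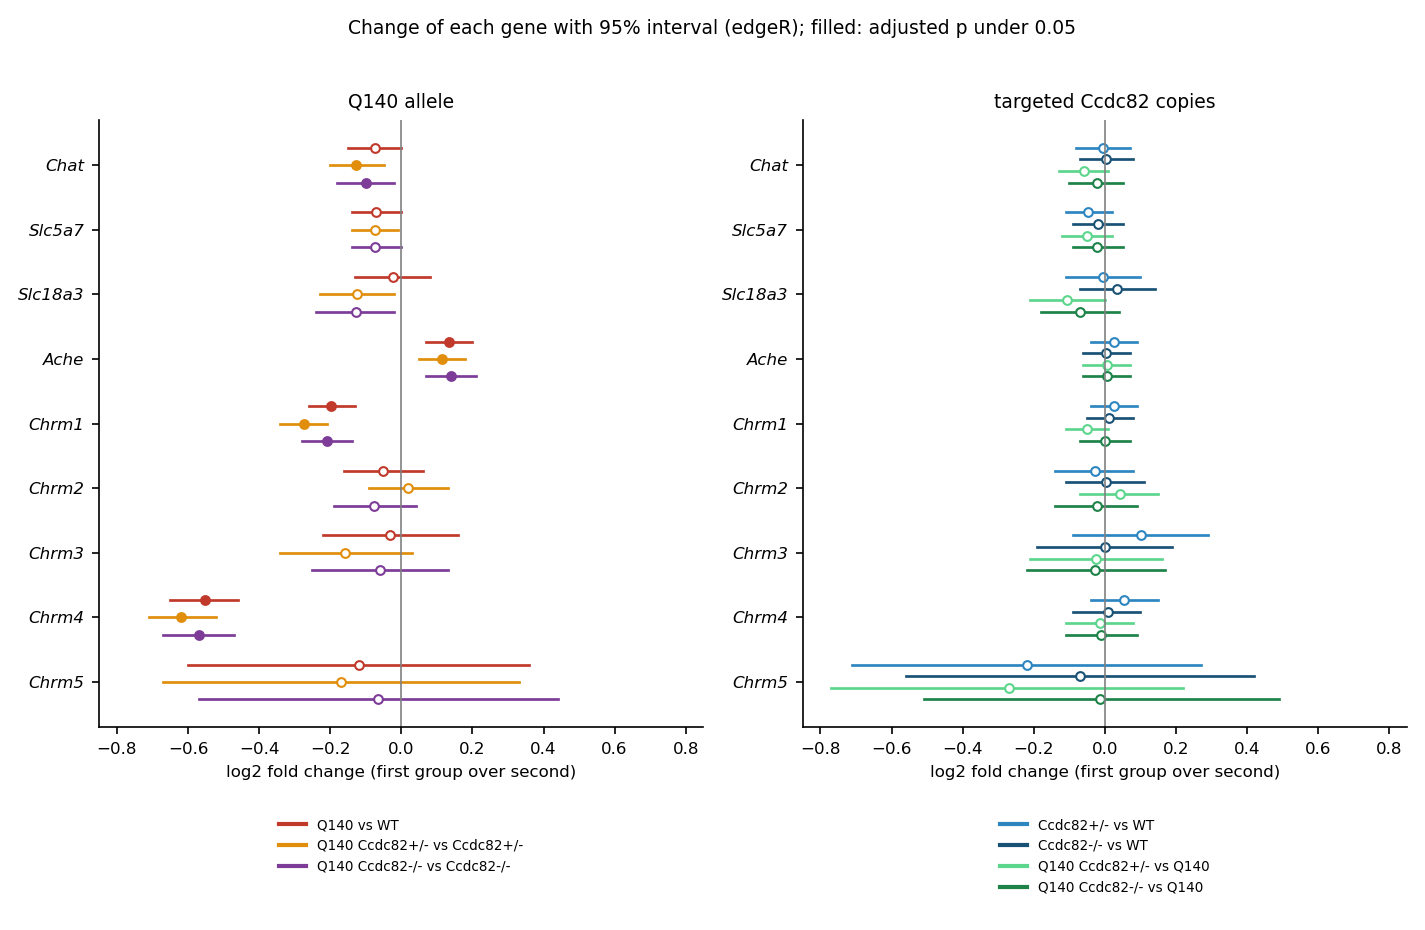
log2 fold change of each gene (x axis, first-named group over second) with its 95% interval from edgeR, for the Q140 allele on 3 Ccdc82 backgrounds (left) and for the targeted Ccdc82 copies (right); filled points passed an adjusted p of 0.05. Chrm4 lies between -0.62 and -0.55 on the left, and no point on the right is filled.

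The wider acetylcholine pathway was described through 60 genes in 8 lists, of which 49 could be tested. Of the 49, 46.9%, 53.1% and 51% passed the edgeR threshold on the 3 backgrounds, where 34.7%, 35.0% and 33.2% of all genes did, and rose and fell are used of these genes in that sense. On the intact background 23 passed, 11 higher and 12 lower in Q140 mice, and on the heterozygous and homozygous backgrounds 26 (15 higher, 11 lower) and 25 (13 higher, 12 lower) passed. The median change of the 49 was 0.00, 0.01 and 0.00, equal to or within 0.01 of that of all genes. The median gene lay 0.05, 0.08 and 0.07 higher with Q140 on the FPKM scale, less than any change named here.

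Nicotinic receptor subunits, which form ion channels opened by acetylcholine, changed in both directions. Of 16 subunit genes 7 could be tested, and on each background 2 rose, 2 fell and 3 gave no call. Chrna4 had 7.13, 8.63 and 11.2 CPM as lowest, median and highest in Q140 mice, against 14.4, 15.4 and 18.7 CPM in WT mice, with no overlap, and fell by 0.86, 1.09 and 1.03 on the 3 backgrounds. Chrna7, whose product forms homomeric channels, had 12.7 to 18.2 CPM in Q140 mice against 18.1 to 21.4 CPM in WT mice and fell by 0.43, 0.39 and 0.39. Chrnb2, the partner subunit of Chrna4, rose by 0.17, 0.15 and 0.17. Chrnb4 rose by 0.60, 0.55 and 0.54, with 0.932 to 2.11 CPM in Q140 mice against 0.684 to 1.20 CPM in WT mice.

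Genes that assist or restrain nicotinic receptors also split. Lynx1, a prototoxin that dampens these receptors, fell by 0.55, 0.59 and 0.59, with 200.5 to 244.2 CPM in Q140 mice against 288.2 to 332.8 CPM in WT mice. Ly6h, of the same protein family, rose by 0.30, 0.32 and 0.32, Tmem35a, a chaperone gene, by 0.18, 0.21 and 0.15, and Lypd6b by 0.42, 0.32 and 0.38. Of the 8 genes in the list, 5 rose and 2 fell on the intact background.

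Downstream of the Gq-coupled receptors, the phospholipase C genes Plcb1, Plcb2 and Plcb3 fell on every background, by 0.36, 0.35 and 0.25 on the intact one, while Plcb4 gave no call. Plcb1 had 418 to 489 CPM in Q140 mice against 544 to 609 CPM in WT mice. Of the Gq subunit genes, Gnaq rose on the heterozygous and homozygous backgrounds by 0.11 each, and Gna11 gave no call. Of the Gi/o arm, which serves the M2 and M4 receptors, Gnao1 fell by 0.17, 0.19 and 0.19 and Gnai1 rose by 0.25, 0.16 and 0.19. Of the channel genes of the M-current, a potassium current that Gq-coupled muscarinic receptors shut, Kcnq5 fell by 0.31, 0.39 and 0.30 and Kcnq3 by 0.19, 0.17 and 0.16. In the list of choline genes, Pcyt1b and Chkb, genes of phosphatidylcholine synthesis, rose by 0.32 and 0.21 on the intact background. The other 8 of the 10 genes tested in that list gave no call on that background. On the heterozygous background 4 of the 10 rose, and on the homozygous one 4 rose and 1 fell.

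**Figure D4:**
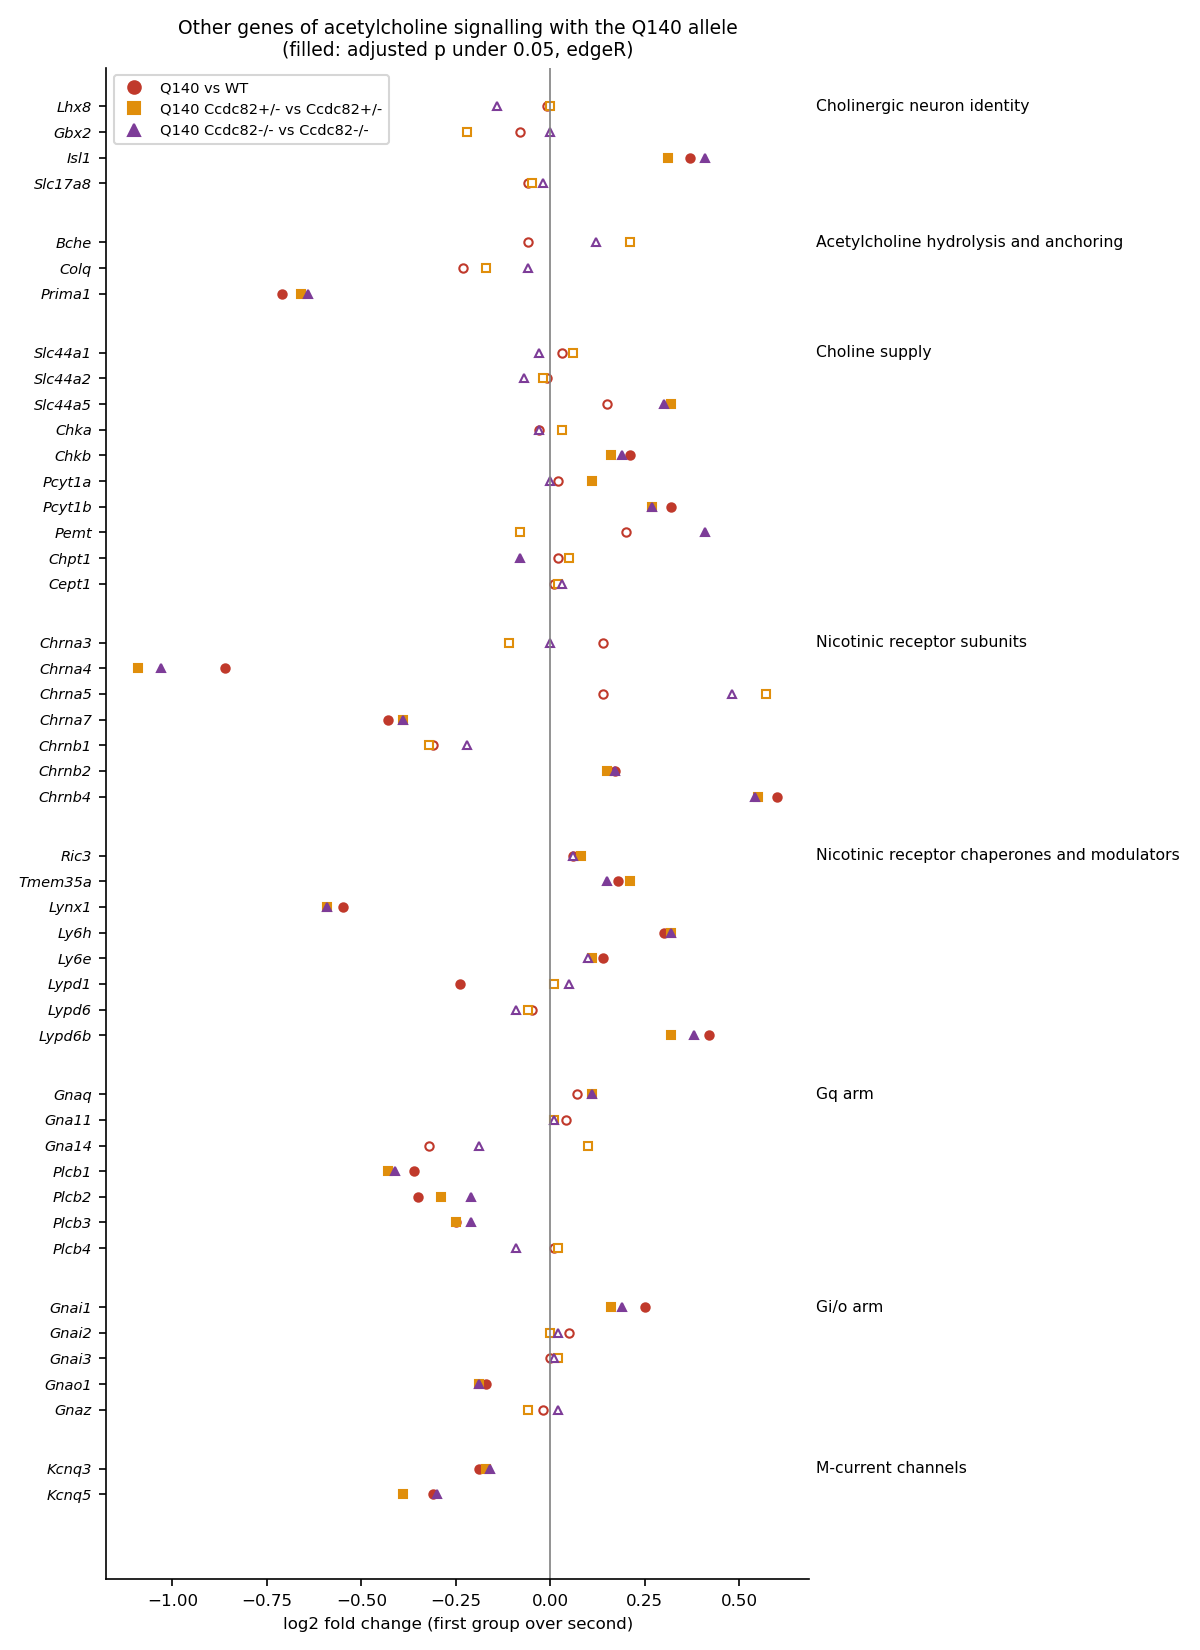
log2 fold change with the Q140 allele (x axis) of 46 tested genes in 8 lists of acetylcholine signalling, 1 symbol per Ccdc82 background, filled where the adjusted p was under 0.05 (edgeR). Chrna4, Prima1 and Lynx1 lie farthest to the left, and most lists hold filled symbols on both sides of 0.

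The second question was whether targeted copies of Ccdc82 moved these genes, alone or together with Q140. These comparisons share control libraries in pairs: both single mutants were set against the WT mice and both double mutants against the Q140 mice. None of the 9 genes passed in Ccdc82+/- against WT, Ccdc82-/- against WT, Q140 Ccdc82+/- against Q140 or Q140 Ccdc82-/- against Q140 (edgeR), and 0.00521% of all genes, 1 gene each, did, with 628, 804, 1101 and 712 genes at an unadjusted p under 0.05 and 1 gene each called by DESeq2. Chrm4 changed by 0.05 ± 0.05, 0.01 ± 0.05, -0.01 ± 0.05 and -0.01 ± 0.05 in these 4 comparisons, with 95% intervals that stayed between -0.11 and 0.15. Chrm1 changed by 0.02, 0.01, -0.05 and 0.00, and Ache by 0.02, 0.00, 0.01 and 0.01, each with a standard error of 0.03. At an unadjusted p under 0.05, 1 of the 36 values stood out, Slc18a3 in Q140 Ccdc82+/- against Q140 at -0.11 ± 0.05 (p 0.0478, adjusted p 0.858, edgeR), and none of the 9 genes passed by DESeq2. The ranges of all 9 genes overlapped in each of the 4 comparisons, where 0.0104%, 0.0156%, 0.0313% and 0.0469% of all genes did not overlap.

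The difference between Q140 effects on the heterozygous or homozygous background and the intact one was tested as an interaction. None of the 9 genes passed for either, and 0% of all genes did by edgeR, with 1011 and 826 of 19193 genes at an unadjusted p under 0.05, and 1 and 0 genes called by DESeq2. For Chrm4 the interaction was -0.07 (95% interval -0.20 to 0.07) with heterozygous and -0.02 (-0.16 to 0.12) with homozygous Ccdc82. For Chrm1 it was -0.07 (-0.16 to 0.02) and -0.01 (-0.10 to 0.08). Chat had a call on 2 backgrounds and none on the intact one, but its interactions of -0.06 (-0.16 to 0.05) and -0.03 (-0.13 to 0.08) did not pass. Changes in the Q140 effect that lie within these intervals are not excluded.

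Sex was a further factor in the design. Chrm5 was the only gene of the 9 to pass in females against males, where 8.67% of all genes did. It averaged 0.603 ± 0.217 CPM in 23 females and 0.442 ± 0.15 CPM in 24 males, and the log2 fold change was 0.44 ± 0.14 (adjusted p 0.0441, edgeR), with ranges of 0.238 to 1.03 CPM in females and 0.252 to 0.93 CPM in males that overlapped. Without the Ccdc82-/- male 1 library, the adjusted p was 0.0616, and it was 0.0648 with plate column as a factor. Chat was at -0.06 ± 0.02 (adjusted p 0.071), Chrm1 at 0.05 ± 0.02 (0.0627) and Chrm4 at -0.07 ± 0.03 (0.13). The Q140 effect in females did not differ from that in males beyond the threshold for any of the 9 genes, nor for any of the 19714 genes tested, 0% (edgeR, 621 genes at an unadjusted p under 0.05, 0 by DESeq2). For Chrm4 that difference was -0.10 (95% interval -0.20 to 0.01).

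Finally, the genes were compared across mice after group and sex means had been removed additively. This left differences between mice of 1 genotype and sex, and also any sex difference particular to 1 genotype. Chat and Slc5a7 varied together most closely, with Pearson r 0.75 and Spearman rho 0.74 over 47 mice (permutation test, adjusted p 0.00036 for both, over 36 pairs). The r was 0.72 in females, 0.81 in males and 0.70 without the 2 libraries farthest from the median of Chat. Slc5a7 also correlated with Slc18a3 (r 0.48, rho 0.58) and Ache (r 0.46, rho 0.43). Chat and Slc18a3, the nested pair, had r 0.36 and rho 0.40 (permutation test, adjusted p 0.0472 and 0.0255). Their r was 0.33 without the 2 libraries farthest from the median and then did not pass (permutation test, adjusted p 0.0749). Chrm2 and Chrm3 had r 0.47 and rho 0.47. In all, 12 of 36 pairs passed, each with a positive r, and without the 2 farthest libraries 6 pairs did. Chrm1 and Chrm4, which both fell with Q140, had r 0.12 and rho 0.11 and did not pass. Chrm4 and Chrm5 had a negative r of -0.34, which did not pass, and a rho of -0.39, which did (permutation tests, adjusted p 0.0529 and 0.0266). All values of 1 mouse share a dissection, a library and a scaling factor.

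**Figure D5:**
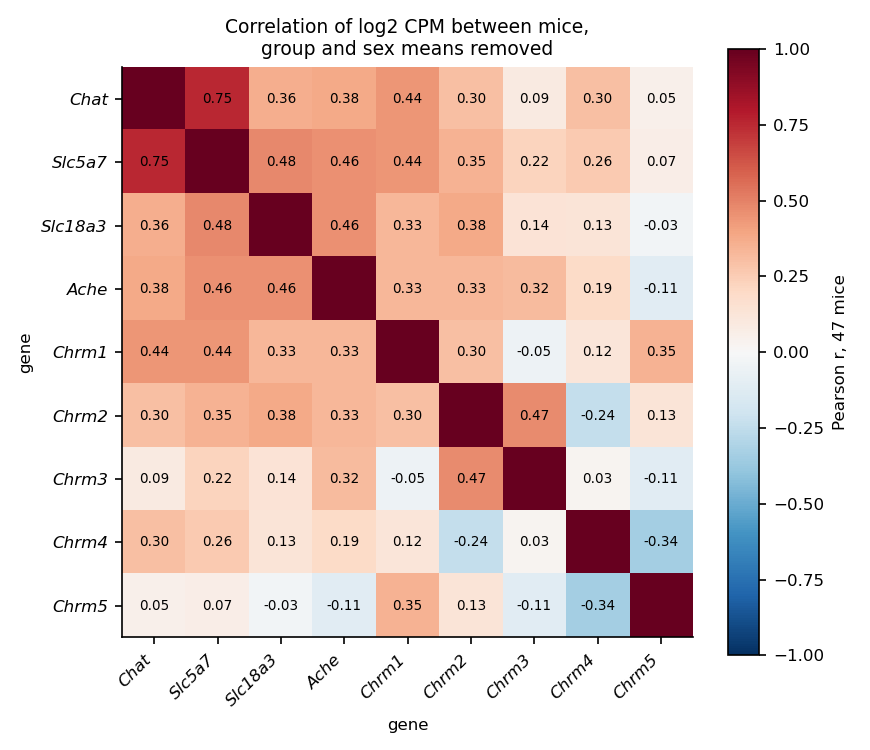
Pearson r of log2 CPM between each pair of genes over 47 mice (both axes list the 9 genes; colour and number give r) after group and sex means were removed. The highest value is 0.75 for Chat with Slc5a7, and Chrm1 with Chrm4 stands at 0.12.

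Among 13858 other genes with a mean of at least 1 on the log2 CPM scale, the pattern of Chat over the 47 mice was most like that of Slc5a7 (r 0.75), Ecel1 (0.73), Rgs6 (0.68), Acly (0.68) and Zic1 (0.66). Lhx8 held place 6 with r 0.64, whereas Slc18a3 held place 449. For Chrm1 the 5 nearest genes were Ncdn (r 0.73), Baiap2 (0.72), Fam171a1 (0.70), Dmtn (0.70) and Cacnb1 (0.70). For Chrm4 they were Mast3 (0.85), Gm996 (0.83), Ppp1r1a (0.82), Scn4b (0.82) and C2cd2l (0.82). Drd1, whose ratio to Chrm4 held between the groups, was at place 320 for Chrm4 with r 0.57. These are descriptions, with no test.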

How the data were processed

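Striatal RNA was read as 47 stranded TruSeq libraries, per the labels. The authors deposited raw counts per gene and FPKM in 1 table each. STAR 2.7.5c, SAMtools 1.10, HTSeq 0.12.3 and GRCm38/mm10 are named in the submitters' processing notes. The annotation release is not given in the sources used here. The deposited FPKM divide each count by 1 gene length and by the library total, without TMM scaling.

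From the counts, edgeR 4.0.16 (R 4.3.3) fitted 6 genotype groups and sex with TMM scaling and the quasi-likelihood test, on 19193 genes kept by its filter on low counts, with Benjamini-Hochberg adjustment and a threshold of 0.05. The test of sex by Q140 used 12 groups and 19714 genes. Ratios within libraries used log2 counts with 0.5 added and exact two-sided permutation of libraries, and 95% intervals came from inverting that test. Correlations used 100000 permutations. The fit was first tested on simulated counts with known changes. Alternatives were DESeq2 1.42.0, limma 3.58.1 on log2 FPKM (pseudocounts 0.1 and 1, filter 0.1), other scalings, filters and covariates, and each sex alone. Python steps used scipy 1.17.1.

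The 9 genes, the wider lists, the markers and the tests were chosen with earlier results of these data known. Named beyond the 9 were, per list, the genes past the threshold in Q140 against WT, at most 4 with the smallest p, and for Chat, Chrm1 and Chrm4 the 5 genes with the highest r. Others were named after their values were seen: Lhx8, Gbx2, Slc17a8, Bche, Colq, Plcb4, Gnaq, Gna11 and the marker genes. Values of 3 genes of the wider lists are not reported here. Each library was taken as 1 mouse. The labels name striata of all mice without numbering animals, so the p-values measure the spread between these libraries. Among marker lists not named in the report, summed levels overlapped between Q140 and WT mice for other interneurons (242 to 272 against 253 to 277 CPM), cortical neurons (32.4 to 35.5 against 30.7 to 40.1 CPM), thalamic or pallidal neurons (80.0 to 88.9 against 71.9 to 86.0 CPM) and erythrocytes (0.0448 to 27.9 against 0.105 to 30.0 CPM). The striatal cholinergic list, 3 of whose 4 genes are among the 9, summed to 104 to 121 CPM in Q140 mice against 111 to 126 CPM in WT mice, and the habenular list to 4.81 to 6.27 against 5.11 to 9.09 CPM.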

Additional observations from a re-analysis of the deposited data

Results flagged for a closer look

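In 54 sets of values, 1 per gene and group, the highest and lowest mouse were compared with the others by Dixon's test, and 3 mice stood apart. By chance about 1 in 20 such sets would do so. Slc5a7 was 58.7 CPM in Q140 Ccdc82+/- male 3, where the other 7 mice had 53.9 to 55.9 CPM. It was 63.4 CPM in Ccdc82-/- female 1, where the others had 57.4 to 60.1 CPM. Slc18a3 was 10.2 CPM in Ccdc82-/- male 2, the lowest of its group, where the others had 12.9 to 14.5 CPM. No value of Chat, Ache or a muscarinic receptor gene stood apart in this way.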

How the results depend on the processing

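Chrm1 and Chrm4 passed with a negative sign on all 3 backgrounds under every alternative run, and Ache passed under all except single-sex fits. The count of the 9 genes called fell to 2 in males alone for Q140 Ccdc82+/- against Ccdc82+/-, and to 2 in females alone for Q140 Ccdc82-/- against Ccdc82-/-, where fewer mice entered each fit. Of all genes, 4685 of 19252 and 3452 of 19263 passed in these fits, against 6726 and 6367 of 19193 in the main fit. For the mean over 3 backgrounds, 3 of the 9 genes instead of 6 passed in males alone and under each of the 3 FPKM settings. Of all genes, 7962 of 19252 passed in males alone, against 10419 of 19193 in the main fit. On FPKM, 11554 of 19704 passed with pseudocount 0.1, 11573 of 19704 with pseudocount 1 and 11653 of 33998 without the filter. In females against males, 0 of the 9 genes passed with no filter on low counts, with plate column as a factor, without Ccdc82-/- male 1, and on unfiltered FPKM, and the cause was not tested. Of all genes, 1083 of 33998, 1427 of 19193, 1607 of 19193 and 1128 of 33998 passed there, against 1664 of 19193 in the main fit. Chat lost its call on the homozygous background without the filter on low counts (adjusted p 0.0851), without the sex term (0.0726) and in either sex alone, and on the heterozygous background in males alone (0.136). On the heterozygous background Slc18a3 passed by DESeq2 (-0.13, adjusted p 0.0474), and Ache missed the threshold in males alone (0.0754). Of correlated pairs, 6 instead of 12 passed without the 2 farthest libraries. On FPKM with pseudocount 0.1, 5907 genes were higher and 2104 lower in Q140 against WT, where TMM-scaled counts gave 3485 higher and 3170 lower. The same split was 6509 to 1893, against 3524 to 3202, on the heterozygous background and 6136 to 1810, against 3360 to 3007, on the homozygous one. On that scale Chat also passed in females against males (-0.07, adjusted p 0.0311). Same-numbered mice of different groups deviated together little (115 pairs, correlations of -0.45 to 0.56, median 0, 31 over 0.1). A replicate block left the counts at 3, 4 and 4 of the 9 genes on the 3 backgrounds, at 6 for their mean and at 0 in the Ccdc82 comparisons. With that block, 6647, 6739 and 6276 of all 19193 genes passed on the 3 backgrounds and 10404 for their mean. Of 1070 effects without a call under alternatives, 95 had the opposite sign. Counting error is largest for Chrm5, at 12 to 48 reads per library, and its share in the spread of the other low genes, such as Slc18a3 and Chrm2, was not tested.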
